A study of Homo sapiens with 16 samples.

Results

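The sialyltransferases and O-glycan core enzymes described here are 10 genes of the 58721 in the count table: the sialyltransferases ST3GAL1, ST3GAL2, ST3GAL4, ST3GAL5, ST6GAL1, ST6GALNAC1 and ST6GALNAC2, and the core enzymes GCNT1, C1GALT1 and C1GALT1C1. The list was selected on measured values: it was chosen because ST3GAL1 was lower under both FOXA1 siRNAs in RT112, so the RT112 values of siFOXA1 against siControl selected it and are given below as a description, with no test. FOXA1, a forkhead pioneer factor of luminal urothelium, was knocked down in RT112, a bladder cancer line of luminal papillary type grown in RPMI, and in SCaBER, a basal and squamous line grown in DMEM, both with 10% fetal bovine serum. Each line received siFOXA1.1, siFOXA1.2, siControl.1 or siControl.2 at 10 nM by lipofection, and each siRNA gave 2 libraries per line. The sample descriptions number these replicate 1 and replicate 2, and that number is called the batch below. No label says that libraries of the same number were handled together, so batch here means that number only. The 16 libraries hold tags from the 3' ends of mRNA. Knock-down was transient in every group. The comparisons set 2 libraries of an siRNA against 4 control libraries or against 2 of another siRNA, so p-values measure the spread between these libraries, and nothing in the labels separates it into culture and technical parts.

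Mucin-type O-glycans start with N-acetylgalactosamine on serine or threonine. C1GALT1 adds galactose to make core 1, and it needs C1GALT1C1 (COSMC), a chaperone of the endoplasmic reticulum, to fold. GCNT1 branches core 1 to core 2. ST3GAL1 caps the galactose of core 1 with alpha-2,3-linked sialic acid, and ST3GAL2 acts on the same kind of acceptor and on gangliosides. ST3GAL4 caps type 2 chains, and ST3GAL5 makes the ganglioside GM3 on lactosylceramide. ST6GAL1 adds alpha-2,6 sialic acid to N-glycans, ST6GALNAC1 makes sialyl-Tn and ST6GALNAC2 sialylates the core N-acetylgalactosamine. Sialylated and truncated O-glycans are carried by mucins such as MUC1 and are altered in many carcinomas.

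Of the promoter windows, 3 are shown, running from 250 bases before an annotated start site to 50 bases after it. ST3GAL5 and C1GALT1 are shown because they differed between the FOXA1 siRNAs in opposite directions, and ST6GAL1 because it was at 0 in every RT112 siFOXA1 library. Capitals mark a 7-base forkhead word. Searched on both strands were TGTTTAC, also TGTTTGC, another word TATTTAC and a last word TATTTGC. The windows are from RefSeq, GRCh38.p14, written 5' to 3' on the gene's strand: ST3GAL5 chr2:85888941-85889240 on the minus strand, C1GALT1 chr7:7182294-7182593 on the plus strand and ST6GAL1 chr3:186930276-186930575 on the plus strand.
ST3GAL5: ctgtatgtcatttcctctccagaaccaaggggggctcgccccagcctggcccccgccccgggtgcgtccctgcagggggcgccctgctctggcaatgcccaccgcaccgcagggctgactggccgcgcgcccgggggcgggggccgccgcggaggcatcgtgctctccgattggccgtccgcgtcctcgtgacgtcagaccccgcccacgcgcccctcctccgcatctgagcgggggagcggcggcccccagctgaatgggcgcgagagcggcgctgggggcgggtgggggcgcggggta
C1GALT1: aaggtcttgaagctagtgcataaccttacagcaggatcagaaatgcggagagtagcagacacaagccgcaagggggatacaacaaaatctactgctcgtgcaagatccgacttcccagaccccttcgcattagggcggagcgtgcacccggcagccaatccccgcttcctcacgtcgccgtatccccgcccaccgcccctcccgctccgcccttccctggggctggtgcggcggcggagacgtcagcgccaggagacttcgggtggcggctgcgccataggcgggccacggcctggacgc
ST6GAL1: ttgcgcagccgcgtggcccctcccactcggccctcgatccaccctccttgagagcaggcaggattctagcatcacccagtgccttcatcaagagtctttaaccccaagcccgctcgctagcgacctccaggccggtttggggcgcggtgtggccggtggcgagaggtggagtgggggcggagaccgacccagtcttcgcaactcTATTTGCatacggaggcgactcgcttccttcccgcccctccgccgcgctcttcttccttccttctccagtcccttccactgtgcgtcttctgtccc

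A forkhead word was found in 1 of the 15 windows read for 6 of the genes, the ST6GAL1 window, where TATTTGC begins 46 bases before the start site. The 6 genes were ST3GAL4, ST3GAL5, ST6GAL1, GCNT1, C1GALT1 and C1GALT1C1. No window of ST3GAL1, ST3GAL2, ST6GALNAC1 or ST6GALNAC2 was read, so nothing is said of them here. The word in the ST6GAL1 window overlaps the octamer word ATTTGCAT, which POU factors read. Of all 35116 windows, 12.1% held a forkhead word and 1.77% the octamer. The libraries hold 3' tags and do not tell which start site was used, and a match is a description of letters only.

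The genes lie on separate chromosomes apart from ST6GALNAC1 and ST6GALNAC2, which are neighbours on chromosome 17 (GRCh38.p14, RefSeq). ST3GAL1 (ENSG00000008513) spans chr8:133454848-133571887, ST3GAL4 (ENSG00000110080) chr11:126355686-126414638 and ST3GAL5 (ENSG00000115525) chr2:85837120-85889034. ST3GAL2 (ENSG00000157350) spans chr16:70375977-70439100, ST6GALNAC1 (ENSG00000070526) chr17:76617407-76643757 and C1GALT1 (ENSG00000106392) chr7:7157377-7248616. GCNT1 (ENSG00000187210) spans chr9:76393869-76507416 and overlaps RFK, RPSAP9 and H3P32. C1GALT1C1 (ENSG00000171155) spans chrX:120625674-120630054, ST6GAL1 (ENSG00000073849) chr3:186930526-187078553 and ST6GALNAC2 (ENSG00000070731) chr17:76565377-76585860. Reads of GCNT1 and RFK can be told apart only where they do not share bases or strand, so GCNT1 values are uncertain to that extent. ST3GAL1 overlaps ST3GAL1-DT, ST3GAL2 overlaps LOC124903707, ST6GAL1 overlaps LOC124906314 and ST6GALNAC2 overlaps LOC122455342. The same limit holds for their values.

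Library totals ran from 6622473 to 7604581 counts in RT112 and from 4528513 to 6914951 in SCaBER, so 3 counts, the lower limit used here, correspond to 0.394 to 0.662 CPM (counts per 1000000, the count divided by the library total). Luminal markers summed to 782 to 1064 CPM in the RT112 controls and 38.6 to 57.04 in the SCaBER controls, and basal markers to 260 to 430 and 2169 to 3663. In the RT112 siFOXA1 libraries the luminal sum was 385 to 665 and the basal sum 416 to 615 CPM. In the SCaBER siFOXA1 libraries the sums were 26.5 to 42.6 and 2697 to 3351 CPM. The luminal markers were FOXA1, the siRNA target, GATA3, PPARG, KRT20, UPK1A, UPK2 and UPK3A. The basal markers were KRT5, KRT6A, KRT14, EGFR and CD44, which is also listed below as a carrier of O-glycans. Of 9 leucocyte, endothelial and fibroblast markers, PTPRC, CD3E, COL3A1 and DCN were at 0 in all 16 libraries. All 9 together summed to 10.4 to 17.7 CPM in the RT112 controls and 12.6 to 61.4 under siFOXA1, and 5.03 to 15.3 and 1.54 to 20.4 CPM in SCaBER. Epithelial markers summed to 4971 to 5666 CPM in the RT112 controls and 3765 to 4503 under siFOXA1, without overlap. Mitochondrial genes took 25.7% to 28.2% of counts in the RT112 siFOXA1.1 libraries and 18.0% to 21.2% in the RT112 controls. The part of these markers and of mitochondrial genes in the values below was not tested, beyond a fit that left mitochondrial genes out.

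FOXA1 itself differed in how far each siRNA lowered it. In RT112 it had 35.0, 29.4, 18.2 and 28.3 CPM in the controls, 1.32 and 3.24 under siFOXA1.1, and 9.18 and 16.0 under siFOXA1.2. The groups did not overlap, and siFOXA1.1 lay below siFOXA1.2 by 2.34 on the log2 scale (SE 0.50, edgeR adjusted p = 0.00181). In SCaBER FOXA1 had 3 to 15 counts in the controls and 0 to 6 under siFOXA1, too few to pass the filter on low counts, so the knock-down could not be sized there.

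At baseline, ST3GAL1 headed the list in RT112 and was nearly lacking in SCaBER. Levels of different genes are compared in TPM, which divides counts by transcript length and scales every library to one total, and the 4 control libraries of each line are described together. In RT112 the mean was 56.6 ± 10.6 TPM (SD, n = 4) for ST3GAL1 and 23.3 ± 4.17 for ST3GAL4, and neither overlapped its neighbour in the order. C1GALT1C1 (12.6 ± 3.01), C1GALT1 (11.2 ± 2.83), ST3GAL5 (8.37 ± 2.33), ST3GAL2 (5.95 ± 1.63), ST6GALNAC1 (3.56 ± 0.852) and GCNT1 (2.82 ± 1.06) followed, each overlapping the next. ST6GAL1 (0.165 ± 0.0995) came last among those detected. In CPM ST3GAL1 also came first in the RT112 controls, at 188 to 312, but ST3GAL5 (51.7 to 94.5) overlapped ST3GAL4 (38.7 to 63.4). ST6GALNAC2 was listed at 0 in all 16 libraries, as was NEU1, the lysosomal sialidase that most cells use, so no absence is read from it.

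In SCaBER the order ran C1GALT1C1 (25.1 ± 4.17 TPM), C1GALT1 (13.8 ± 3.17), ST3GAL2 (10.0 ± 1.97), ST3GAL4 (6.11 ± 2.43) and GCNT1 (4.12 ± 1.43), followed by ST3GAL5 (0.907 ± 0.546), ST3GAL1 (0.588 ± 0.526) and ST6GAL1 (0.158 ± 0.155). In TPM C1GALT1C1 stood clear of C1GALT1, and GCNT1 of ST3GAL5, while other neighbours overlapped. This order depends on the division by transcript length. In CPM C1GALT1 (31.3 to 52.5) lay above C1GALT1C1 (13.7 to 20.1) in the SCaBER controls, without overlap. ST6GALNAC1 and ST6GALNAC2 were listed at 0. In the plot of control levels GCNT1 and C1GALT1 overlap between the lines, and C1GALT1C1 lies higher in SCaBER in TPM.

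**Figure D1:**
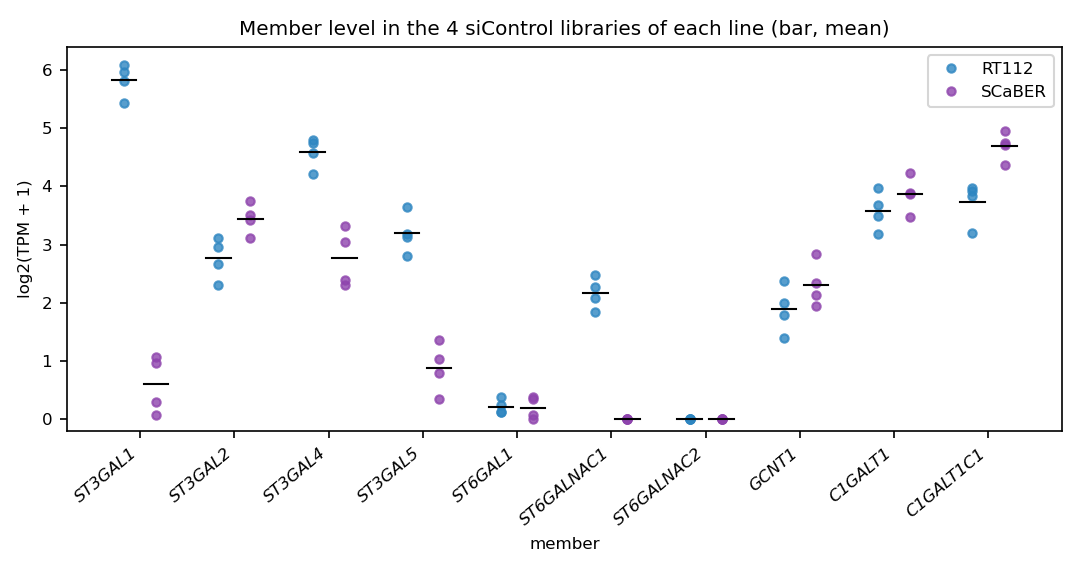
Level of each of the 10 genes in the 4 siControl libraries of RT112 (blue) and SCaBER (purple), as log2(TPM + 1) on the vertical axis. Points are libraries and bars are means. ST3GAL1, ST3GAL4, ST3GAL5 and ST6GALNAC1 lie higher in RT112 without overlap.

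Between the lines under siControl, 4 of 8 tested members passed the threshold of 0.05, against 43.4% of all genes tested, so the share is near the background. All 4 were higher in RT112, but ST3GAL1 and ST6GALNAC1 passed the low-count filter only through the RT112 libraries. A lower level in RT112 could not have been called for them, so their values are a description. ST3GAL1 was higher by 7.03 on the log2 scale (SE 0.45), with 1352 to 2373 counts per RT112 control library and 1 to 24 in SCaBER. This value carries no test, since the RT112 controls also belong to the comparison that selected the gene. ST3GAL5, the GM3 synthase, was higher by 3.59 (SE 0.38, edgeR adjusted p = 2.63e-06) and ST3GAL4 by 2.36 (SE 0.29, edgeR adjusted p = 9.98e-06). ST6GALNAC1 averaged 6.29 CPM in the RT112 controls against 0 in SCaBER. This is at least 9.50-fold higher in RT112 when 3 counts per library is taken as the SCaBER limit. ST3GAL2, GCNT1, C1GALT1 and C1GALT1C1 did not pass by edgeR: the log2 differences (RT112 minus SCaBER) were -0.37 (SE 0.24), -0.16 (SE 0.36), 0.11 (SE 0.23) and -0.59 (SE 0.30). By limma on log2(TPM + 1) 6 of 8 passed. The added members were C1GALT1C1 (limma adjusted p = 0.00389) and ST3GAL2 (limma adjusted p = 0.0383), both lower in RT112. Control libraries did not overlap between the lines for 5 of 8 members, C1GALT1C1 included, against 41.7% of all genes tested.

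In RT112, ST3GAL1 was at 312, 287, 241 and 188 CPM in the controls, at 114 and 93.8 under siFOXA1.1, and at 92.4 and 102 under siFOXA1.2. All 4 siFOXA1 libraries lay below all 4 controls, and the 2 FOXA1 siRNAs overlapped each other. The mean under siFOXA1 was 39.1% of the control mean, 40.4% for siFOXA1.1 and 37.9% for siFOXA1.2, with fitted log2 values of -1.16 (SE 0.15) and -1.36 (SE 0.15). Within batches the level was 41.2% of the controls in batch 1 and 39.5% in batch 2 for siFOXA1.1, and 33.4% and 43.1% for siFOXA1.2. These values selected the list and carry no test. In such bulk libraries fewer cells with the mRNA and less mRNA per cell cannot be told apart. ST3GAL1 made up 35.9% to 49.6% of the summed TPM of the 10 genes in the RT112 controls and 25.0% to 29.7% under siFOXA1, and the sum itself went from 112 to 138 TPM in the controls to 59.6 to 87.3 TPM.

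**Figure D2:**
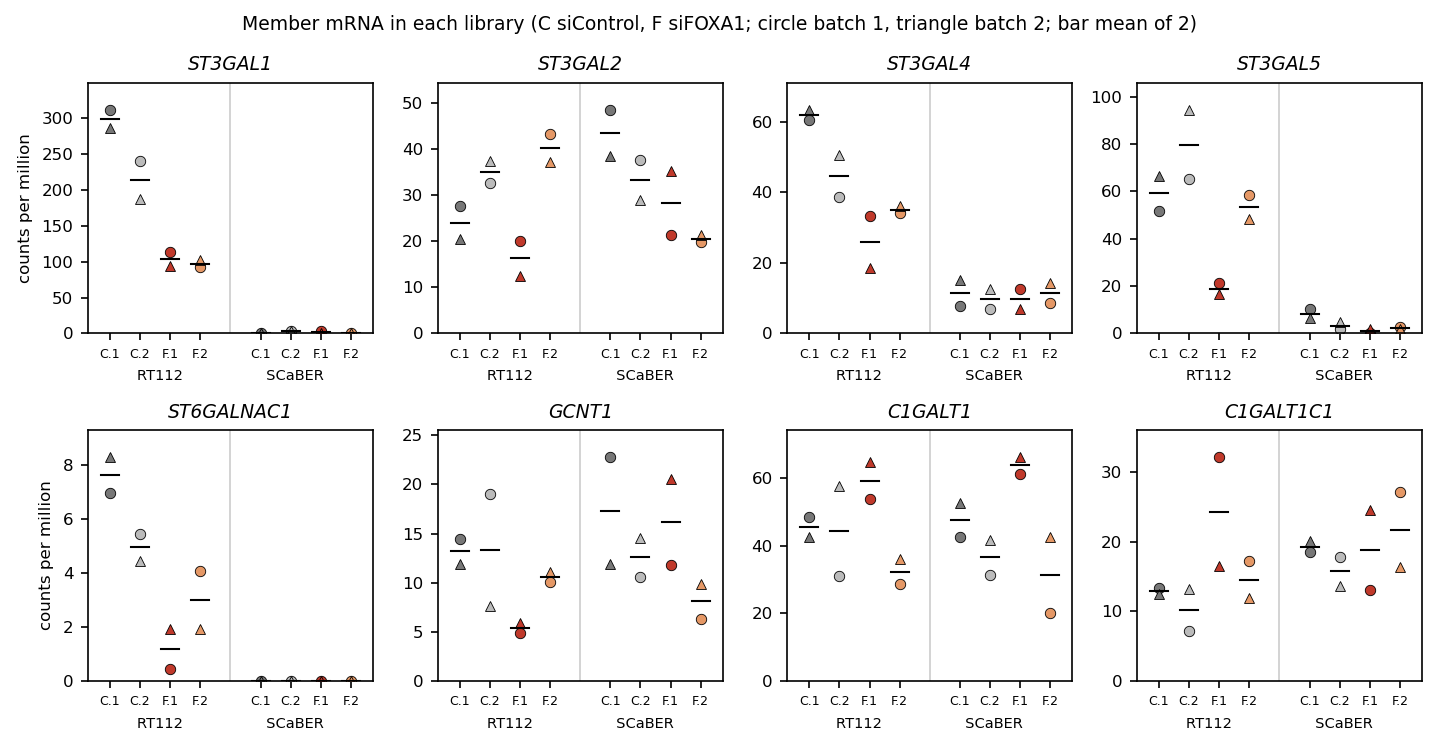
CPM of 8 genes in each of the 16 libraries, with siControl (C) in grey and siFOXA1 (F) in red and orange, circles for batch 1, triangles for batch 2, and bars for the mean of 2 libraries. ST3GAL1 lies at 92.4 to 114 CPM under both FOXA1 siRNAs in RT112, and in RT112 ST3GAL5 is lowest in the 2 siFOXA1.1 libraries.

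ST3GAL4 lay at 38.7 to 63.4 CPM in the RT112 controls and 18.4 to 36.1 under siFOXA1, without overlap, and the fitted values were -0.89 (SE 0.25) for siFOXA1.1 and -0.57 (SE 0.24) for siFOXA1.2. Without the library siFOXA1.1 replicate 2 the siFOXA1.1 value was -0.56 (SE 0.27). ST6GALNAC1, the sialyl-Tn synthase, had 32 to 55 counts per control library and 3, 13, 28 and 14 counts in the siFOXA1 libraries, again without overlap. ST3GAL1, ST3GAL4 and ST6GALNAC1 were the 3 of 8 tested members whose RT112 groups did not overlap, where 7.95% of all genes tested did so. The rule used this comparison, so nothing is read from the count.

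ST6GAL1 had 11, 3, 3 and 6 counts in the RT112 controls and 0 in all 4 siFOXA1 libraries. It failed the filter, and with controls at or near 3 counts no fold is given. In the SCaBER controls it had 6, 1, 7 and 0 counts.

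Counts in the RT112 comparisons that chose the list are given only as a description. Under siFOXA1.1, 4 of 8 fitted members lay past the threshold of the fit, ST3GAL1 among them, where 32.6% of all genes did. Under siFOXA1.2 the count was 1 of 8, ST3GAL1 itself, where 2.04% of all genes did. With the libraries pooled by target it was again ST3GAL1, 1 of 8, where 0.108% of genes did. The pooled count was 0 of 8 when the replicate number was fitted as a block. The median log2 value over the 8 was -1.02 for siFOXA1.1 and -0.40 for siFOXA1.2, beside -0.01 and 0.01 over all genes. Since ST3GAL1 was picked for being low in these libraries, nothing is read from these counts or shares.

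**Figure D3:**
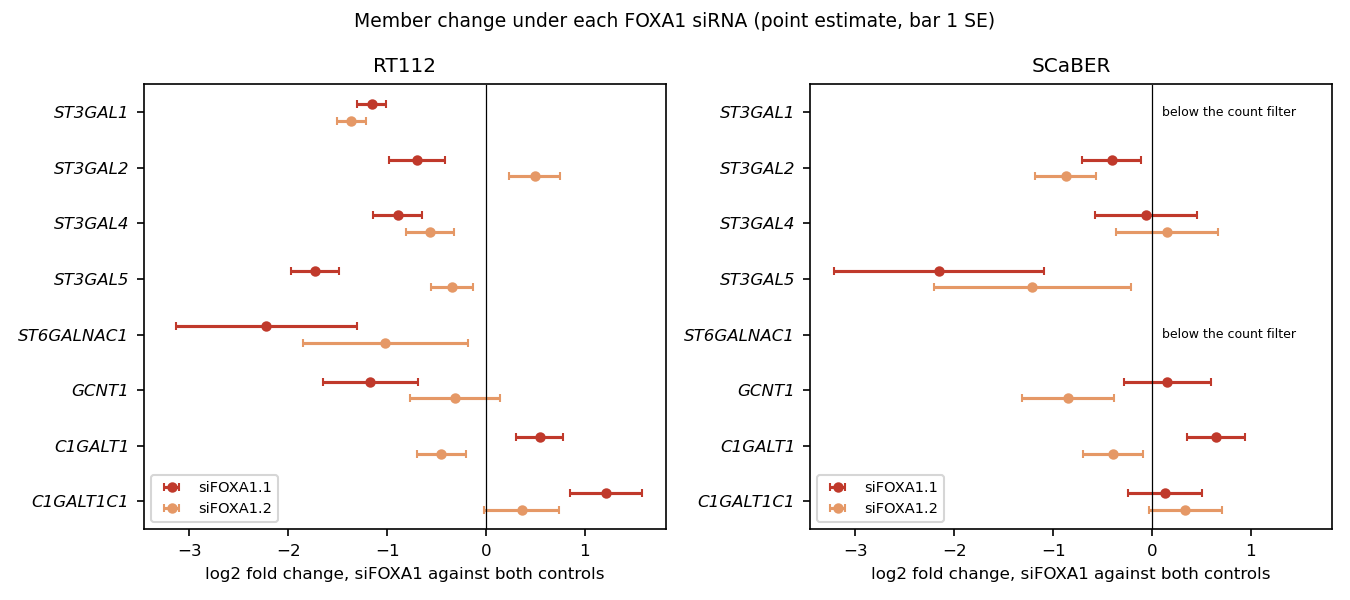
Fitted log2 fold change of each tested gene under siFOXA1.1 (red) and siFOXA1.2 (orange) against both controls, in RT112 (left) and SCaBER (right), with bars of 1 SE. ST3GAL1 lies at -1.16 and -1.36 in RT112, while ST3GAL2 and C1GALT1 lie on opposite sides of 0.

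Setting the FOXA1 siRNAs against each other in RT112 is a comparison the rule did not use for members other than ST3GAL1, and 3 of 8 members passed it, where 28.1% of all genes did. ST3GAL5 had 51.7, 66.6, 65.1 and 94.5 CPM in the controls, 21.1 and 16.7 under siFOXA1.1, and 58.6 and 48.2 under siFOXA1.2. Both siFOXA1.1 libraries lay below the other 6, and siFOXA1.1 lay below siFOXA1.2 by 1.39 on the log2 scale (SE 0.26, edgeR adjusted p = 0.000621). ST3GAL2 had 20.1 and 12.5 CPM under siFOXA1.1 against 43.1 and 37.1 under siFOXA1.2, a log2 difference of -1.19 (SE 0.31, edgeR adjusted p = 0.00838), with controls at 20.4 to 37.4. C1GALT1, the core 1 synthase, went the other way, at 53.9 and 64.7 CPM under siFOXA1.1 and 28.7 and 35.9 under siFOXA1.2 (log2 difference 0.99, SE 0.28, edgeR adjusted p = 0.0138). Its controls spanned 30.9 to 57.7 CPM, overlapping both. The ST3GAL5 difference passed in all 16 alternatives. Those of ST3GAL2 and C1GALT1 did not pass without the library siFOXA1.2 replicate 1 (-1.08 and 0.84) or without siFOXA1.1 replicate 2 (-0.92 and 0.82).

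For ST3GAL1, which was chosen for being low under both FOXA1 siRNAs, the log2 difference between them was 0.21 (SE 0.16) and is a description. The log2 differences that did not pass were those of ST3GAL4 (-0.33, SE 0.28), ST6GALNAC1 (-1.21, SE 0.98), GCNT1 (-0.86, SE 0.53) and C1GALT1C1 (0.85, SE 0.44). C1GALT1C1, the COSMC chaperone, had 32.2 and 16.5 CPM under siFOXA1.1 and 7.19 to 13.3 in the controls, and GCNT1 had 4.83 and 5.89 CPM against 7.64 to 19.0. Between the control siRNAs of RT112, 0 of 8 members passed by edgeR at the adjusted threshold, where 2.36% of genes did. At an unadjusted p under 0.05, 1 did, and by DESeq2 1 passed. That member was ST3GAL1, which was higher under siControl.1 than siControl.2 by 0.54 on the log2 scale (SE 0.16, edgeR adjusted p = 0.0877).

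In SCaBER, 6 of the 10 genes passed the count filter and none passed any siRNA comparison by edgeR, DESeq2 or limma. At an unadjusted p under 0.05, 1 passed under siFOXA1.1 (C1GALT1), 1 under siFOXA1.2 (ST3GAL2), 1 between the FOXA1 siRNAs (C1GALT1), 0 between the controls and 2 with libraries pooled (ST3GAL2 and ST3GAL5). The background was 9.26% of genes for siFOXA1.1, 0.042% for siFOXA1.2, 4.85% for siFOXA1.1 against siFOXA1.2, 0.0672% between the controls and 0.0084% with libraries pooled by target. No member's SCaBER groups failed to overlap, where 5.28% of genes did not overlap. ST3GAL1 had 5, 1, 24 and 15 counts in the SCaBER controls and 15, 1, 6 and 2 under siFOXA1. With no filter, its log2 values were 0.19 (SE 1.60) and -1.07 (SE 1.82), so at this depth a change of the size seen in RT112 was not detectable.

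C1GALT1 in SCaBER had 61.4 and 66.2 CPM under siFOXA1.1, 20.1 and 42.6 under siFOXA1.2, and 31.3 to 52.5 in the controls. The log2 difference between the FOXA1 siRNAs was 1.04 (SE 0.35, edgeR adjusted p = 0.110), and it passed with batch as a replicate block (1.11, SE 0.31, edgeR adjusted p = 0.0418). ST3GAL5 had 11 to 62 counts in the controls and 1 to 17 under siFOXA1, with log2 values of -2.16 (SE 1.06, edgeR adjusted p = 0.244) and -1.21 (SE 1.00). ST3GAL2 lay at 28.9 to 48.4 CPM in the controls and at 19.7 to 35.1 under siFOXA1, and ST3GAL4 at 6.98 to 15.1 and 6.94 to 14.4.

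Tests of the line difference in the siFOXA1.1 or siFOXA1.2 change found no member past the threshold by edgeR or DESeq2, where 3.14% and 0.0438% of genes passed. ST6GALNAC1 gives no value there, as SCaBER had no counts. At an unadjusted p under 0.05, 0 passed for siFOXA1.1 and 1 for siFOXA1.2, ST3GAL2 (log2 difference of differences 1.37, SE 0.41, edgeR adjusted p = 0.501). For ST3GAL1, whose RT112 change selected it, the differences were -1.22 (SE 0.74) and -0.31 (SE 0.92), with no test. The siFOXA1.1 value for ST3GAL1 rests on single SCaBER libraries with few counts: it was -2.31 (SE 0.57) without SCaBER siFOXA1.1 replicate 2 and turned to 1.87 (SE 1.09) without SCaBER siFOXA1.1 replicate 1. A lower level in RT112 with no call in SCaBER is therefore not shown to differ between the lines.

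**Figure D4:**
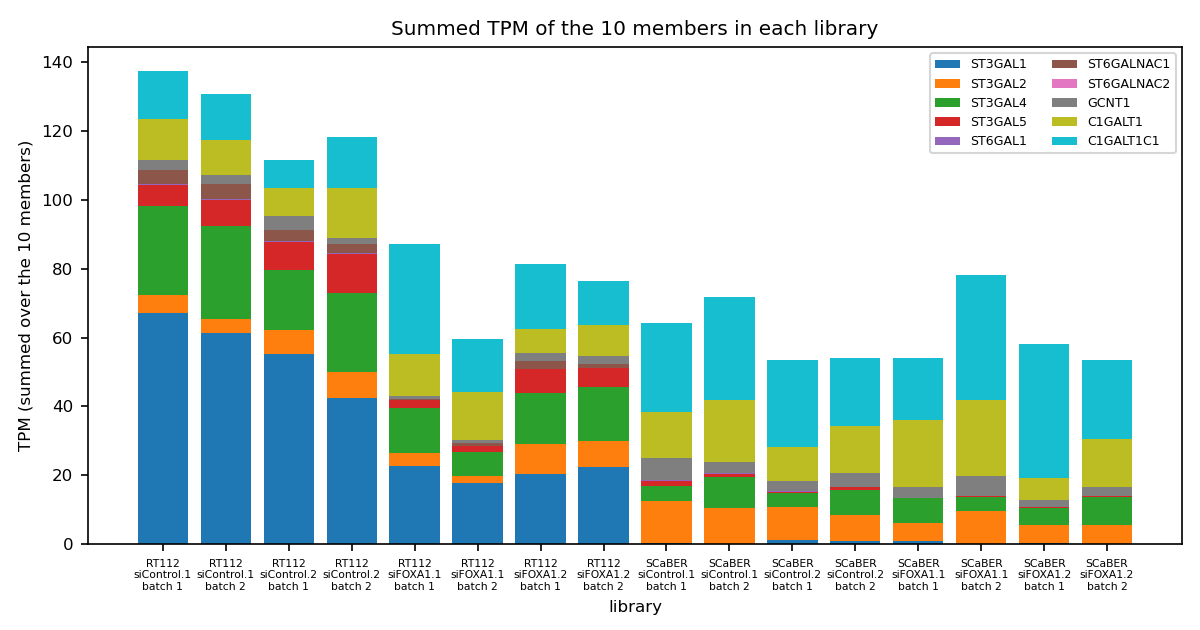
Summed TPM of the 10 genes in each library (bars), split by gene (colours), with line, siRNA and batch below each bar. In the RT112 controls ST3GAL1 makes up 35.9% to 49.6% of the bar, and in SCaBER C1GALT1C1 and C1GALT1 make up most of it.

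The wider pathway was followed in 89 other genes, of which 44 had enough counts to be tested in RT112 and 41 in SCaBER. RT112 under siFOXA1.1 had 7 that were higher and 10 lower past the threshold, where 32.6% of all genes passed in either direction. Under siFOXA1.2 there were 2 higher and 1 lower, where 2.04% passed. Between the 2 control siRNAs of RT112 there were 1 higher and 1 lower, MUC15 and PODXL, where 2.36% passed. With libraries pooled by target 0 passed by edgeR (9 at an unadjusted p under 0.05, 1 by DESeq2). In SCaBER the counts under siFOXA1.1 were 3 higher and 2 lower, where 9.26% passed, and under siFOXA1.2 0 passed by edgeR (3 unadjusted, 1 by DESeq2). Of the enzymes that start O-glycans, 1 of 8 tested in RT112 rose under siFOXA1.1 and 2 fell, and 1 of 9 fell in SCaBER, GALNT10, by 1.23 on the log2 scale (SE 0.29, edgeR adjusted p = 0.0146).

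Of the carriers of O-glycans, 1 of 6 tested rose and 3 fell under siFOXA1.1 in RT112, where 32.6% of all genes passed in either direction. PODXL, among those that fell, also passed between the control siRNAs, lower under siControl.1 (log2 difference -1.34, SE 0.34, edgeR adjusted p = 0.0433). MUC1, the transmembrane mucin, had 42, 52, 65 and 13 counts in the RT112 controls and 0 and 0 under siFOXA1.1. This is at least 13.5-fold lower at a limit of 3 counts per library. MUC1 passed the low-count filter only through the other RT112 libraries, so this RT112 value is a description. Under siFOXA1.2 it had 51 and 35 counts, within the control range. In SCaBER the siFOXA1.1 change was a log2 value of -2.36 (SE 0.36, edgeR adjusted p = 0.000944), with 15.3 and 6.22 CPM against 50.8 to 61.1 in the controls. CD44 passed under both FOXA1 siRNAs in RT112 and was the carrier that rose under siFOXA1.1. It had 134 and 164 CPM under siFOXA1.1 and 264 and 230 under siFOXA1.2, against 62.1 to 138 in the controls. The controls were at 90.1 and 62.1 CPM under siControl.1 and 138 and 122 under siControl.2, so siFOXA1.1 overlapped siControl.2. The siFOXA1.2 rise of CD44 was 1.33 in log2 units (SE 0.15, edgeR adjusted p = 5.31e-05).

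Among the 14 tested branching and extension enzymes in RT112, 3 rose and 3 fell under siFOXA1.1. B4GALT2, a galactosyltransferase of type 2 chains, fell by 2.04 (SE 0.25, edgeR adjusted p = 5.36e-06). B3GNT7, which extends keratan-type chains, had 23, 29, 24 and 64 counts in the controls and 0 and 0 under siFOXA1.1, at least 11.0-fold lower. B3GNT7 also passed the low-count filter only through the other RT112 libraries, so its value is a description. B3GNT3, the core 1 extension enzyme, rose by 1.25 on the log2 scale (SE 0.29, edgeR adjusted p = 0.00246). Under siFOXA1.2 GCNT4 rose by 1.26 (SE 0.28, edgeR adjusted p = 0.0252) and B3GALT5 fell by 2.79 (SE 0.69, edgeR adjusted p = 0.0428). In SCaBER, B4GALT1 and B4GALT5 rose under siFOXA1.1 by 0.93 (SE 0.22) and 0.65 (SE 0.17) on the log2 scale. Both also passed in RT112 under siFOXA1.1. There B4GALT1 rose, at 457 and 434 CPM against 286 to 326 in the controls, and B4GALT5 fell, at 185 and 156 against 203 to 284.

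FUT3 makes Lewis antigens on sialylated or neutral chains. Under siFOXA1.1 it rose in SCaBER by 2.14 log2 units (SE 0.55, edgeR adjusted p = 0.0236). In RT112 it stood at 85.1 and 44.2 CPM under siFOXA1.1 against 6.53 to 14.9 in the controls, and rose past the threshold (edgeR adjusted p = 3.85e-06). Near-identical copies of FUT3 make its counts uncertain. It was 1 of 6 tested fucosyltransferases in RT112 and 1 of 7 in SCaBER to pass. Of the sialic acid supply and removal genes, 1 of 8 rose under siFOXA1.1 in RT112 and 1 fell. The one that rose was GNE, which makes the sialic acid precursor, by 0.90 (SE 0.26, edgeR adjusted p = 0.0132). ST6GALNAC4, 1 of 2 other sialyltransferases tested, fell by 1.82 (SE 0.59, edgeR adjusted p = 0.0243). None of these 3 passed under siFOXA1.2 in RT112.

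Between the lines under siControl, 25 of 45 tested pathway genes passed, 13 higher in RT112 and 12 lower, where 43.4% of all genes passed. GALNT1, which starts O-glycans, exceeded its SCaBER level by 2.82 in log2 units (SE 0.15, edgeR adjusted p = 2.77e-09), and GCNT4, a core 2 branching enzyme, by 5.10 (SE 0.55). GNE was higher by 3.68 (SE 0.48) and B3GALT5 by 2.70 (SE 0.81). Those lower in RT112 included MUC1 (-3.22, SE 0.36), FUT4 (-2.84, SE 0.76), CD44 (-2.17, SE 0.20) and FUT8 (-2.08, SE 0.19). GCNT4 (0 to 7 counts per SCaBER control library), GNE (4 to 14) and B3GALT5 (0 to 35) passed the low-count filter only through RT112. FUT4, with 0 to 19 counts per RT112 control library, passed it only through SCaBER. The direction of these differences is a description.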

How the data were processed

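The sialyltransferases, core enzymes and pathway lists were chosen with earlier results of these data known. Per the labels, the authors aligned the 3' mRNA tags with STAR 2.6.1a to hg38 (the study's methods name another build), and deposited raw read counts per gene and TPM, computed upstream of this report. A 3' tag does not grow with transcript length, so TPM across genes is approximate. Counts were tested with edgeR 4.0.16 (R 4.3.3) by quasi-likelihood, with the 4 siRNA means of a line, TMM scaling, the edgeR low-count filter by target and Benjamini-Hochberg adjustment over all genes tested; 0.05 was the threshold. TMM was compared with DESeq2 1.42.0 size factors and its Wald test, limma 3.58.1 on log2(TPM + 1), no filter and leaving libraries out. Depth was 4528513 to 7604581 counts per library. Named pathway genes passed the threshold with a mean of at least 20 counts, at most 4 per direction and comparison. Batch here is the replicate number of the sample descriptions. Deviations of same-numbered libraries of a line correlated at -0.02 to 0.01 in RT112 and 0.02 to 0.20 in SCaBER. Batch was fitted as an alternative. Intervals were not computed, and SEs cover the spread between libraries.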

Additional observations from a re-analysis of the deposited data

Results flagged for a closer look

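Of 32 arms of 4 libraries checked, 3 held 1 library standing apart from the rest, where chance gives about 1 in 20. ST3GAL2 was at 35.1 CPM in SCaBER siFOXA1.1 replicate 2, against 19.7 to 21.2 in the others of that arm. ST3GAL4 was at 18.4 CPM in RT112 siFOXA1.1 replicate 2, against 33.4 to 36.1. C1GALT1C1 was at 7.19 CPM in RT112 siControl.2 replicate 1, against 12.5 to 13.3.

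The siFOXA1.1 change differed between the lines by the edgeR test of the difference for 2 pathway genes and for none of the 10 genes reported here. B4GALT2 changed by -1.78 more on the log2 scale in RT112 than in SCaBER (SE 0.35, edgeR adjusted p = 0.0095), and B4GALT5 by -1.06 (SE 0.22, edgeR adjusted p = 0.0139).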

How the results depend on the processing

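Counts of members past the threshold were recomputed for 13 comparisons under 219 alternatives, and 21 of them moved by over 1.5 times. With all 16 libraries sharing 1 spread, siFOXA1.2 in RT112 gave 0 and siFOXA1.1 in SCaBER 1. Between the RT112 controls, DESeq2 gave 1 and no filter beyond 1 count gave 1. For the RT112 pooled comparison, limma gave 0 and the replicate block 0. In SCaBER, siFOXA1.1 against siFOXA1.2 gave 1 with no filter and 1 with the replicate block; the block moved no other count of members past that limit. For the line difference under siFOXA1.1, limma gave 1, ST6GALNAC1. Leaving out single libraries gave 3 to 6 members for siFOXA1.1 in RT112, 1 to 3 for siFOXA1.1 against siFOXA1.2, 0 to 1 between the RT112 controls and 0 to 1 for the RT112 pooled comparison, where 7 of 8 omissions gave 0. They gave 0 to 1 for the siFOXA1.1 line difference and 4 to 4 between the lines. Under siFOXA1.2 in RT112 each omission left 1, and in SCaBER and the siFOXA1.2 line difference 0. Of 1548 values of single members, 1508 kept their side of the threshold, 21 lost it and 19 gained it; none past it reversed. The causes were not tested. Depth limits ST3GAL1, ST6GAL1 and FOXA1 in SCaBER, at 0 to 24 counts.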
